A study of Zea mays with 11 samples.

Results

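The MIR2275 and MIR2118 miRNA genes of maize (*Zea mays*) were examined in anthers of *pam1* mutant plants and of the inbred line A344. They were taken from the count table by name, as every row whose identifier begins with zma-MIR2275 or zma-MIR2118 and that has at least 1 count in any library. This gave 8 rows out of 44474, namely 3 MIR2275 rows (zma-MIR2275c, zma-MIR2275a and zma-MIR2275b) and 5 MIR2118 rows (MIR2118f, MIR2118e, MIR2118a, MIR2118c and MIR2118g). The table lists 11 rows of the 2 families, and the other 3 (MIR2275d, MIR2118b and MIR2118d) had no count in any library. RNA-seq libraries of the *pam1* mutant (3), which the labels give only as *pam1* with no inbred background named, were set against libraries of wild-type A344 (3). PAM1 is a protein with an RNA recognition motif, and the comparison addresses how the mutant's anther transcriptome differs from the wild type's. All 6 libraries were of anthers labelled Prophase I, the long first phase of meiosis, and a directional kit was used on total RNA. Since the background of the mutant is not given, the effect of the mutation and that of other sequence differences from A344 cannot be told apart.

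Both families are known as triggers of phased small RNAs in grass anthers. Each guides cleavage of long non-coding precursor transcripts, which are then copied into double-stranded RNA by an RNA-dependent RNA polymerase and diced at regular steps into small interfering RNAs. miR2118 starts the premeiotic class, which in maize depends on the anther epidermis. miR2275 starts the meiotic class, which in maize is cut by the Dicer-like enzyme DCL5, depends on the tapetum (the nutritive layer around the meiocytes) and is abundant during meiosis. The order of the 2 classes has made their triggers useful as markers of anther stage. The values here are reads of total RNA at the genes of these miRNAs, not mature miRNA.

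Library totals were 2002784 to 2595247 counts in *pam1* and 1918457 to 2420973 counts in A344. At this depth 3 counts, taken as the limit that a count of 0 allows, correspond to 1.16 to 1.56 CPM (counts scaled to a common library total) in a library, so the rows with no count may have been present below that level. Across the 18491 rows with enough counts to be tested, log2 CPM of *pam1* replicate 3 correlated with the A344 libraries at 0.896 to 0.912, and those of *pam1* replicates 1 and 2 at 0.866 to 0.885 (rows are not independent replicates). Libraries of 1 group correlated at 0.952 to 0.971. *pam1* replicate 3 thus lay nearer to A344 than the other mutant libraries, and the main results that depend on it are given without it as well. The labels do not say that replicates came from different plants, and the spread behind each p-value may be partly technical.

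Of the 8 rows, MIR2275c rose in *pam1* anthers, and the other 7 had too few counts to pass the low-count filter. MIR2275c had 24, 37 and 16 counts in *pam1* replicates 1 to 3, against 1, 0 and 1 count in A344 replicates 1 to 3. Every *pam1* library was well above every A344 library, and the lowest mutant value was in *pam1* replicate 3. As levels, these were 11.8, 14.3 and 7.99 CPM in *pam1* and 0.413, 0 and 0.441 CPM in A344. The exact Poisson 95% intervals of the *pam1* levels, which cover counting error only, were 7.56 to 17.5, 10.04 to 19.7 and 4.57 to 13.0 CPM. In A344 the upper limits were 2.30, 1.92 and 2.45 CPM, all below the lower limit of each *pam1* library.

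In edgeR's quasi-likelihood test, fitted on all 18491 tested rows with Benjamini-Hochberg adjustment over them, MIR2275c was higher in *pam1* by 4.99 ± 0.57 on the log2 scale (SE; adjusted p = 6.30e-05). The background is that 8.18% of tested rows were called higher in *pam1*. MIR2275c passed the low-count filter only through its *pam1* counts, since A344 had 2 counts in all. Its adjusted p and its place among the tested rows therefore describe the difference and are not separate support for it. Fitted without that filter, its log2 fold change was 4.97 ± 0.60 (SE). Among the tested rows, 91 had a larger log2 fold change and 190 a lower p in this test, and the median log2 fold change was −0.01. An exact permutation test of the CPM values of this row alone gave a two-sided p of 0.1, the smallest that 3 against 3 libraries allow. The summed counts, 77 in *pam1* and 2 in A344, gave a ratio of 38.4 after scaling by library totals, with an exact 95% interval of 10.3 to 322 for counting error. Its width comes from the 2 A344 counts. Without *pam1* replicate 3 the log2 fold change was 5.17 (edgeR adjusted p = 7.43e-05). The authors' deposited table, whose log2 values are A344 over *pam1*, gives −5.20 ± 1.14 (SE) for this row with an adjusted p of 0.000215, in a table where 7.61% of the rows with an adjusted p were under 0.05.

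**Figure D1:**
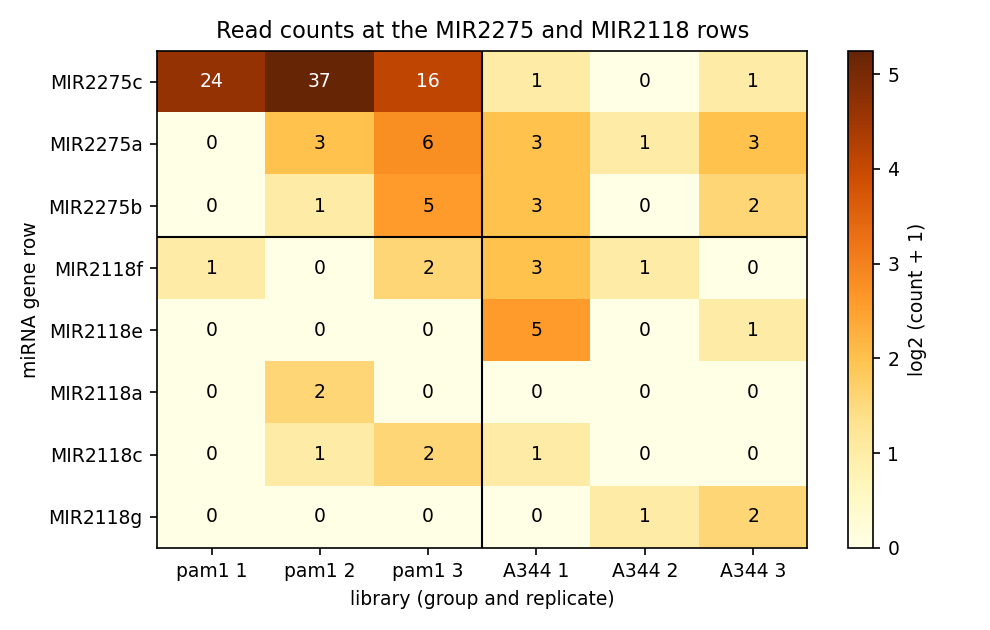
Read counts of the 8 MIR2275 and MIR2118 rows (down the page) in the 3 *pam1* and 3 A344 libraries (across), shaded by log2 (count + 1). MIR2275c has 16 to 37 counts in the *pam1* libraries and 0 to 1 in A344, while no other row exceeds 6 counts in any library.

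The other MIR2275 genes did not share the pattern of MIR2275c. MIR2275a had 0, 3 and 6 counts in *pam1* replicates 1 to 3, against 3, 1 and 3 counts in A344. MIR2275b had 0, 1 and 5 counts in *pam1*, against 3, 0 and 2 counts in A344. For both rows the groups overlapped, and *pam1* replicate 1, which had 24 counts of MIR2275c, had none of either. Most of their mutant counts were in *pam1* replicate 3, where MIR2275c was lowest. The mean level of MIR2275a was 1.38 ± 1.51 CPM in *pam1*, against 1.03 ± 0.440 CPM in A344, and that of MIR2275b was 0.961 ± 1.34 CPM in *pam1*, against 0.707 ± 0.638 CPM in A344 (SD, n = 3 each).

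Ratios of summed counts were 1.28 for MIR2275a (95% interval 0.425 to 4.05) and 1.20 for MIR2275b (0.304 to 4.95). When all 36964 rows with a count were fitted without a low-count filter, 11.0% of them were called by edgeR, and neither row was (edgeR adjusted p = 0.856 for MIR2275a and 0.921 for MIR2275b). Both intervals include lower and higher levels in *pam1*, so a difference of moderate size in either direction was not detectable at this depth. In the authors' deposited table their log2 values, A344 over *pam1*, were −0.37 (adjusted p = 0.9495) and −0.35 (adjusted p = 0.962).

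MIR2275a and MIR2275b lie next to each other in the count table, with 0 rows between them, and also have 0 genes between them in the RefSeq gene table of a later B73 assembly. Their counts followed the same order over the *pam1* libraries, and reads that cover both could be assigned to either. Together they had 15 counts in *pam1*, against 12 in A344, for a ratio of 1.25 (95% interval 0.544 to 2.91). Of the 15 mutant counts, 11 came from *pam1* replicate 3, and without that library the ratio was 0.476. Leaving out A344 replicate 2 also turned the ratio, to 0.964, so no direction is read for this pair.

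MIR2275c accordingly made up most of its family in the mutant and little of it in the wild type. In *pam1* replicates 1 to 3 it held 100%, 90.2% and 59.3% of the 24, 41 and 27 MIR2275 counts. In A344 replicates 1 to 3 it held 14.3%, 0% and 16.7% of only 7, 1 and 6 counts. The mutant shares lay above all wild-type shares.

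MIR2118 was sparse in both groups, and no MIR2118 row separated them. MIR2118f had 1, 0 and 2 counts in *pam1*, against 3, 1 and 0 counts in A344, a ratio of 0.747 (95% interval 0.109 to 4.42). MIR2118c had 0, 1 and 2 counts in *pam1*, against 1, 0 and 0 counts in A344, a ratio of 2.99 (0.240 to 157). Both intervals span more than 10-fold and include equality.

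The remaining 3 MIR2118 rows had counts in 1 group only. MIR2118e had no count in *pam1*, against 5, 0 and 1 counts in A344. The upper 95% limit of its *pam1* to A344 ratio was 0.846 for counting error, but 5 of its 6 counts came from A344 replicate 1 and the groups overlapped at 0. MIR2118g had no count in *pam1*, against 0, 1 and 2 counts in A344. MIR2118a had 0, 2 and 0 counts in *pam1*, against none in A344. For MIR2118g and MIR2118a the counts were at or under this limit of 3 counts in both groups and no fold is given.

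None of the 5 MIR2118 rows was called in the edgeR fit without a low-count filter, where adjusted p ran from 0.127 for MIR2118e (unadjusted p = 0.0189) to 0.879 for MIR2118f. An unadjusted p under 0.05 was reached by 1 of the 5, MIR2118e, and by 20.5% of all rows in that fit. The authors' deposited table gives no adjusted p for any of them, and its unadjusted p was 0.140 for MIR2118e. Over both families, 1 of the 8 rows, MIR2275c, had its lowest *pam1* level above its highest A344 level, as did 14.4% of all rows with a count.

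Summed over its rows, MIR2275 stood at 11.8, 15.8 and 13.5 CPM in *pam1* replicates 1 to 3, against 2.89, 0.521 and 2.64 CPM in A344. The means were 13.7 ± 2.01 CPM in *pam1*, from 92 counts, and 2.02 ± 1.30 CPM in A344, from 14 counts (SD, n = 3 each). This is a ratio of 6.55 (95% interval 3.71 to 12.4), and without MIR2275c it was 1.25, as given for the other pair of rows. Among the mutant libraries the SD of the family sum, 2.01 CPM, was below that of MIR2275c alone, 3.16 CPM. *pam1* replicate 3 had the fewest MIR2275c counts and the most counts of the other rows, at 11. Whether the levels of these rows are related was not tested.

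MIR2118 summed to 0.491, 1.16 and 2.00 CPM in *pam1* replicates 1 to 3, against 3.72, 1.04 and 1.32 CPM in A344. The groups overlapped, and the highest value was that of A344 replicate 1. Means were 1.21 ± 0.755 CPM in *pam1*, from 8 counts, and 2.03 ± 1.47 CPM in A344, from 14 counts (SD, n = 3 each), which makes a ratio of 0.569 (95% interval 0.207 to 1.45). A344 replicate 1 held 9 of the 14 wild-type counts, and without it the ratio was 1.01. Leaving out any other single library gave ratios from 0.408 (without *pam1* replicate 3) to 0.719 (without *pam1* replicate 1). A difference between genotypes in MIR2118 was therefore not detectable at this depth.

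The families were also compared within each library, where library size and scaling cancel. MIR2275 made up 96.0%, 93.2% and 87.1% of the counts of both families in *pam1* replicates 1 to 3, from 25, 44 and 31 counts. In A344 replicates 1 to 3 it made up 43.8%, 33.3% and 66.7%, from 16, 3 and 9 counts. The mutant shares were all above the wild-type shares, but the exact (Clopper-Pearson) 95% intervals were wide in A344, at 19.8 to 70.1%, 0.840 to 90.6% and 29.9 to 92.5%. In *pam1* they were 79.6 to 99.9%, 81.3 to 98.6% and 70.2 to 96.4%.

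From the summed counts, the balance of MIR2275 to MIR2118 was shifted towards MIR2275 in *pam1* by a conditional odds ratio of 11.2 (95% interval 3.64 to 37.1). The interval covers counting error only, and no p is given for a sum over rows chosen by family name. Leaving out MIR2275c reduced the odds ratio to 2.15 (0.600 to 8.16), an interval that includes 1. The shift in the balance between the families thus rested on MIR2275c. With *pam1* replicate 3 left out, the odds ratio was 15.6, and with A344 replicate 1 left out it was 7.95.

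**Figure D2:**
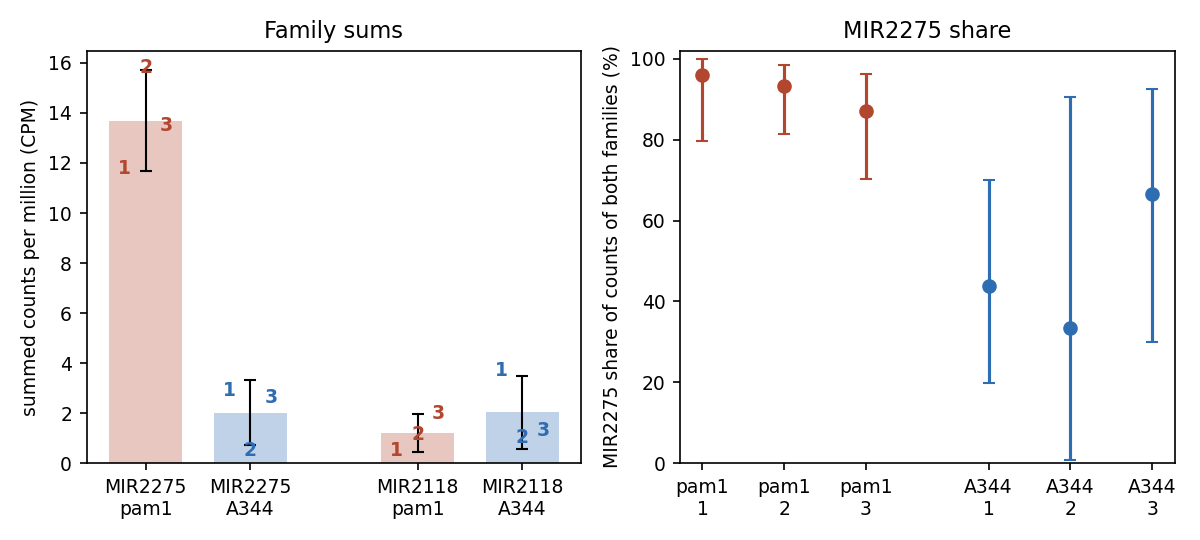
Left, summed CPM of the MIR2275 and MIR2118 rows, with bars for the mean of 3 libraries, error bars for the SD (not drawn below 0) and digits for the replicates. Right, the share of MIR2275 among the counts of both families in each library with exact 95% intervals. MIR2275 averages 13.7 CPM in *pam1* and 2.02 CPM in A344, MIR2118 averages 1.21 CPM in *pam1* and 2.03 CPM in A344, and the MIR2275 share is 87.1% or more in *pam1* and 66.7% or less in A344.

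The summed count of other miRNA genes was also higher in the mutant libraries. The 83 other miRNA rows with a count summed to 117, 104 and 92.4 CPM in *pam1* replicates 1 to 3, against 64.0, 37.0 and 56.8 CPM in A344, a ratio of 1.94 (95% interval 1.71 to 2.21). Relative to these rows, MIR2275 was higher in *pam1* by an odds ratio of 3.37 (1.88 to 6.50), and by 3.25 without *pam1* replicate 3. The pair MIR2275a and MIR2275b stood at 0.642 (0.277 to 1.52). *pam1* replicate 3 held 11 of the pair's 15 mutant counts, and this odds ratio was not computed without it. MIR2118 stood at 0.294 (0.106 to 0.758) relative to the same rows, at 0.463 without A344 replicate 1 and at 0.200 without *pam1* replicate 3. These intervals cover counting error only, and A344 replicate 1 held 9 of the 14 wild-type MIR2118 counts. As the MIR2118 CPM values overlapped and the sum of the other rows was higher in *pam1*, no fall of MIR2118 itself is read. Only 7 miRNA rows, MIR2275c among them, had enough counts to be tested. How the sum of the other rows is spread over them was not examined, and what raised it was not tested.

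As shares of the counts of all miRNA rows, MIR2275 took 9.13%, 13.1% and 12.5% in *pam1* replicates 1 to 3, against 4.09%, 1.35% and 4.35% in A344. MIR2118 took 0.380%, 0.958% and 1.85% in *pam1*, against 5.26%, 2.70% and 2.17% in A344. For MIR2275 every *pam1* share was above every A344 share. For MIR2118 every *pam1* share was below every A344 share, but the nearest values, 4 of 216 counts in *pam1* replicate 3 and 3 of 138 counts in A344 replicate 3, have exact 95% intervals of 0.507 to 4.67% and 0.451 to 6.22%, so that gap lies within counting error. The total of all miRNA rows includes MIR2275c and was itself higher in *pam1*, which lowers the MIR2118 share there. The MIR2118 CPM values of the groups overlapped.

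The rows next to the members in the table were examined for shared changes, because reads of a neighbouring or overlapping transcript can be counted at a short gene. The row after MIR2275c, Zm00001d024429, had 21, 25 and 10 counts in *pam1*, against 26, 8 and 15 counts in A344 (log2 fold change 0.17 ± 0.37 SE, edgeR adjusted p = 0.818). The next one, Zm00001d024430, had 184, 216 and 155 counts in *pam1*, against 217, 154 and 170 counts in A344 (log2 0.01 ± 0.13 SE, edgeR adjusted p = 0.967). On the other side, Zm00001d024428 had 1, 0 and 1 counts in *pam1*, against 0, 2 and 0 in A344. Beyond it, Zm00001d024427 had 2, 1 and 3 counts in *pam1*, against 0, 2 and 0 in A344. None of these separated the groups as MIR2275c did. The order of rows gives neither distance nor strand, and whether reads of another transcript were counted at MIR2275c was not tested.

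The pair MIR2275a and MIR2275b is flanked by Zm00001d049479 and Zm00001d049480, whose log2 fold changes were −0.07 ± 0.17 and −0.06 ± 0.17 (SE), and neither was called (edgeR adjusted p = 0.846 and 0.877). In all, 17 distinct rows were the nearest on either side of a member (2 with a count on each side), of which 8 were tested and 1 was called, beside 14.9% of all tested rows called in either direction. That row, Zm00001d025437, lies 3 rows before MIR2118f and had 16, 16 and 22 counts in *pam1*, against 6, 4 and 9 in A344 (log2 1.48 ± 0.39 SE, edgeR adjusted p = 0.0204). Its call was lost in 5 alternatives, with adjusted p up to 0.118 under DESeq2, while its log2 fold change in them was 1.23 to 1.51. Between MIR2118e and MIR2118a, Zm00001d025442 had 3, 2 and 1 counts in *pam1* and none in A344, too few to be tested.

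**Figure D3:**
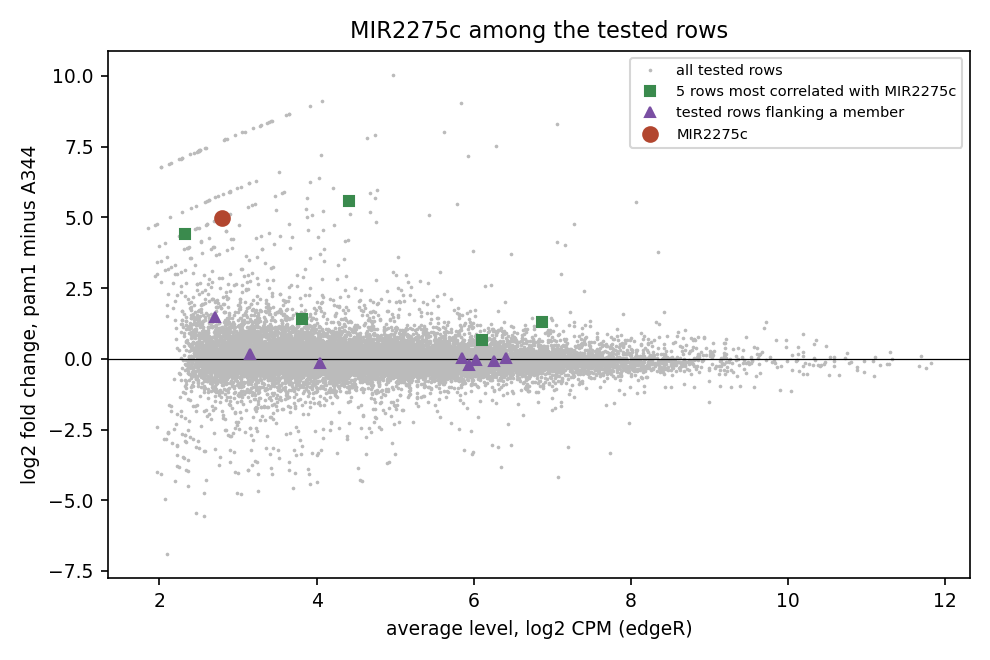
Log2 fold change (*pam1* minus A344, vertical) against average log2 CPM (horizontal) for the 18491 tested rows, with MIR2275c, the tested rows flanking a member and the 5 rows most correlated with MIR2275c marked. MIR2275c lies at 4.99, and the flanking rows lie between −0.20 and 1.48.

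Rows whose pattern over the 6 libraries was most like that of MIR2275c were named by the Pearson correlation of log2 CPM (prior count 2). MIR2275c had 1, 0 and 1 counts in A344, so its A344 values in this measure are set largely by the prior count. As a description, 528 of the 18490 other tested rows had a correlation above 0.95, and all points share the same 6 libraries and the same group difference. The highest was that of Zm00001d016441 (r = 0.998), with 332, 460 and 301 counts in *pam1*, against 161, 110 and 158 counts in A344. Zm00001d015097 (r = 0.998) had 14, 26 and 12 counts in *pam1*, against 1, 0 and 1 counts in A344, and was the row nearest to MIR2275c in its counts among the 5. Zm00001d027834 (r = 0.997) had 88, 118 and 57 counts in *pam1*, against 3, 0 and 2 in A344.

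The choice by correlation fixes that these rows are higher in *pam1*, so no test of the group difference is given for them. Their sizes of difference were not alike. Fitted log2 fold changes were 5.58 ± 0.41 for Zm00001d027834 and 4.43 ± 0.60 for Zm00001d015097 (SE). They were 1.32 ± 0.13 for Zm00001d016441, 1.42 ± 0.24 for Zm00001d010240 and 0.66 ± 0.13 for Zm00001d031958. The sources used here give none of them a gene name.

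**Figure D4:**
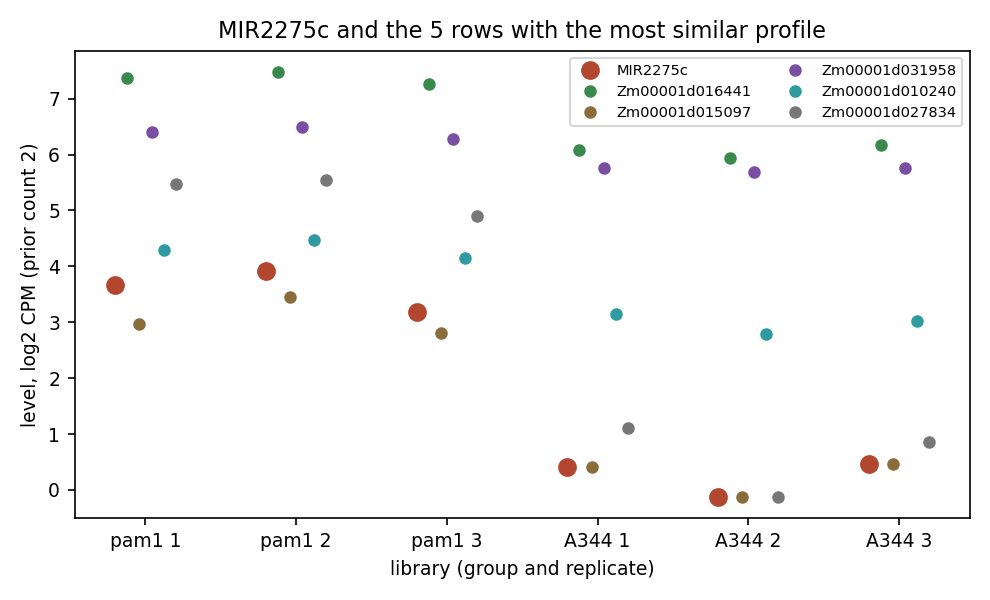
Level (log2 CPM, prior count 2) of MIR2275c and of the 5 rows with the highest Pearson correlation to it, in the 3 *pam1* and 3 A344 libraries; points of a library are set side by side. The rows were chosen for this likeness, so the gap between groups is given by the choice, while its size differs between rows, from 0.66 to 5.58 in fitted log2 fold change.

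Other genes of the phased small RNA pathway could not be set beside the triggers. Of 24 symbols listed for it (such as dcl5, rdr6, lbl1, ocl4, ms23 and members of the ago18 group), 8 were in the RefSeq gene table and 0 could be matched to a row of the count table, which names genes by Zm00001d identifiers. Of 19 symbols of tapetum, epidermis and meiocyte markers, 14 were in that table and 0 were matched. The labelled stage and tissue were therefore not checked against marker genes, and whether the anthers of the groups were at the same point of prophase I was not tested. In whole anthers, fewer cells of a type and less RNA per cell cannot be told apart.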

How the data were processed

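RNA-seq of anthers (3 *pam1* and 3 A344 libraries) was used. The authors deposited whole-number counts per row, not normalized. The mutant columns are headed PAML and numbered, and were taken as the *pam1* replicates of those numbers because the table sets PAML against A344. The submitters' processing notes name STAR and DESeq2 but no role for either. The sources used here do not give the counting program, the strand setting or the handling of multiply matching reads. Near-identical family members or overlapping genes may thus share reads in an unknown way. Per the file headers, the authors' deposited comparison table gives a mean signal, log2 fold changes with standard errors, and p-values. Its log2 values are positive where A344 is higher. The peak list of the immunoprecipitation part was not used here, since positions of the members on its assembly were not at hand. No miRNA sequences are shown for want of a table of them.

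The members and lists were chosen with earlier results of these data known. The main test was the two-sided quasi-likelihood test of edgeR 4.0.16 (R 4.3.3), with TMM scaling, the default filterByExpr, Benjamini-Hochberg adjustment over all tested rows and a threshold of 0.05. SE is the log2 fold change divided by the square root of the F statistic. CPM values use library totals. Ratios of summed counts have exact conditional 95% intervals, and all such intervals and the floor of 3 counts cover counting error only. Named rows were all members, the 2 nearest rows with a count on each side, and the 5 rows most correlated with MIR2275c. No pair of libraries was a duplicate (chi-square per degree of freedom 1.99 to 5.42 within groups). Deviations from group means correlated between libraries of the same replicate number at 0.134, 0.118 and 0.128. Libraries of different numbers were not compared in this way and the labels state no pairing, so whether the numbers pair the libraries is not settled. The main test had no replicate block, and the block was run as an alternative. Alternatives were other scalings and filters, DESeq2 1.42.0, limma 3.58.1 (voom), the replicate block and leaving out each library. Python 3.11.15, scipy 1.17.1 and pandas 2.3.3 were used for the other steps.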

Additional observations from a re-analysis of the deposited data

How the results depend on the processing

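MIR2275c was higher in *pam1* and called in all 13 alternatives run. Log2 fold changes were 4.57 to 5.31, with adjusted p up to 0.000698 (edgeR, DESeq2 and limma voom). The alternatives are refits of the same libraries, and the row passed the low-count filter only through its *pam1* counts. The calls of MIR2275c therefore describe the difference and are not separate support for it. With the replicate number as a block its log2 fold change was 4.95 (edgeR adjusted p = 3.32e-05) and 3352 rows were called against 2748. The block changed no call of a named row. Over alternatives that leave out 1 library, 1768 to 2917 rows were called. The lowest value was without *pam1* replicate 1 and the highest without A344 replicate 2, so the number of rows called depended on the library left out. At adjusted p under 0.01, 1432 were called, fewer by construction. Without MIR2275c the MIR2275 ratio was 1.25 and the odds ratio to MIR2118 was 2.15, since that row holds most of the counts. The MIR2275 ratio was 5.01 to 8.30, the MIR2118 ratio 0.408 to 1.01 and the odds ratio 7.95 to 15.6 with 1 library left out. Of the rows flanking members, 5 that were not called changed sign near 0. With 1 library left out, Zm00001d024429 ran from −0.070 to 0.57, Zm00001d024430 from −0.055 to 0.067, Zm00001d049479 from −0.25 to 0.034, Zm00001d049480 from −0.20 to 0.11 and Zm00001d003644 from −0.11 to 0.18. Zm00001d024430 was −0.0039 with no low-count filter, −0.0063 with a minimum of 1 CPM in 3 libraries and −0.0093 under DESeq2. All 64 alternative CPM differences of the 8 members moved by less than the SD between replicates, but in 5 of them, for 3 members, the sign turned. Without *pam1* replicate 3, MIR2275a was −0.45 against 0.36 CPM and MIR2275b −0.51 against 0.25 CPM. MIR2275b was −0.099 without A344 replicate 2. MIR2118f, at −0.090 CPM, was 0.16 without *pam1* replicate 2 and 0.24 without A344 replicate 1. Alternatives for CPM differences, for single members with no filter, for the pair MIR2275a and MIR2275b and for ratios to other miRNA rows were chosen after seeing the data. Depth limits 7 of the 8 members, at 2 to 16 counts over 6 libraries.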
